A study of Triticum aestivum with 23 samples.

Results

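The 10 genes described here are those that the study listed under the annotation term beta-fructofuranosidase activity in wheat seedlings with mutations in TaBRI1, the receptor for the brassinosteroid hormones. They were matched by their older identifiers to the second identifier column of the expression table, where they took 11 of 266760 rows, since TraesCS7A02G009100 stood beside both TraesCS7A03G0018100 and TraesCS7A03G0018300LC. The LC row, a low-confidence gene model, was at 0 TPM (reads per gene scaled for gene length and library size) in all 23 libraries and is not described further. The other 10 rows all passed the filter on low values, together with 83495 genes in the whole table.

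Beta-fructofuranosidases, also called invertases, split sucrose, the sugar in which plants move carbon between organs, into glucose and fructose. Cell wall, vacuolar and cytosolic forms are known in plants, and in grasses the same family holds the enzymes that build and break down fructans, the fructose polymers that cereals store in stems and leaf bases. The annotation term gave no form to any single gene. Of the 10, 7 were also under sucrose alpha-glucosidase activity, a separate term for the splitting of sucrose. The 3 that were not under it were TraesCS4A03G1224500, TraesCS6D03G0052000 and TraesCS6B03G0071900.

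RNA was sequenced from the whole shoot of hexaploid wheat seedlings at leaf stage 2, grown at 21 °C in 24 h light, with several seedlings pooled for each library. The triple mutants were tabri1-a.1bd with 3 libraries, and tabri1-a.2bd and then tabri1-a.3bd with 4 each. The double mutant tabri1-bd, the null segregant TaBRI1-NS and the spring cultivar Cadenza also had 4 libraries each. All 4 mutants carried premature stop alleles of TaBRI1-B1 and TaBRI1-D1. tabri1-bd had the wild-type TaBRI1-A1 gene in addition, tabri1-a.1bd a stop allele of it, and tabri1-a.2bd carried an amino acid substitution in it, as did tabri1-a.3bd at another residue. The stop alleles came from chemically mutagenised Cadenza and were backcrossed to Cadenza, with TaBRI1-NS as the sister line without them. The substitution alleles came from mutagenising tabri1-bd a further time. Both substitution mutants were then crossed to tabri1-bd, and triple mutants were selected from that backcross. Each substitution allele came from a single line, and the mutant lines may carry other induced mutations. tabri1-a.1bd and tabri1-a.2bd are called the dwarf mutants below.

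The depth recovered from the TPM steps was 22039081 to 37438067 reads per library, with a median of 29315581. The libraries held green tissue by the check of 15 genes of plastoglobules, the lipid bodies of chloroplasts, of which all 15 averaged at least 1 TPM in every genotype. Their summed level was 306 to 334 TPM in tabri1-a.1bd, 516 to 535 TPM in tabri1-a.2bd and 604 to 743 TPM across the libraries of the other 4 genotypes. The plastoglobule genes were themselves chosen by the study as changed in the dwarf mutants, and the part of this shift in the results below was not tested. In whole shoots, fewer cells of a type and less RNA per cell cannot be told apart.

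The members were chosen because the study called them in both dwarf mutants, and not in tabri1-a.3bd, against TaBRI1-NS. Their values in those comparisons are therefore given as a description. Against TaBRI1-NS the 10 genes were not alike in direction. In each dwarf mutant, 5 genes on chromosomes 4A, 7A and 7D were lower in every library than in any TaBRI1-NS library, and 5 genes, 4 of them on 6B and 6D and the other on 7A, were higher in every library. Of all genes tested, 39.7% had no overlap in tabri1-a.1bd, with 16.9% lower and 22.8% higher. The share was 16.8% for tabri1-a.2bd, with 6.37% lower and 10.4% higher. The direction was the same for each gene in both dwarf mutants.

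**Figure D1:**
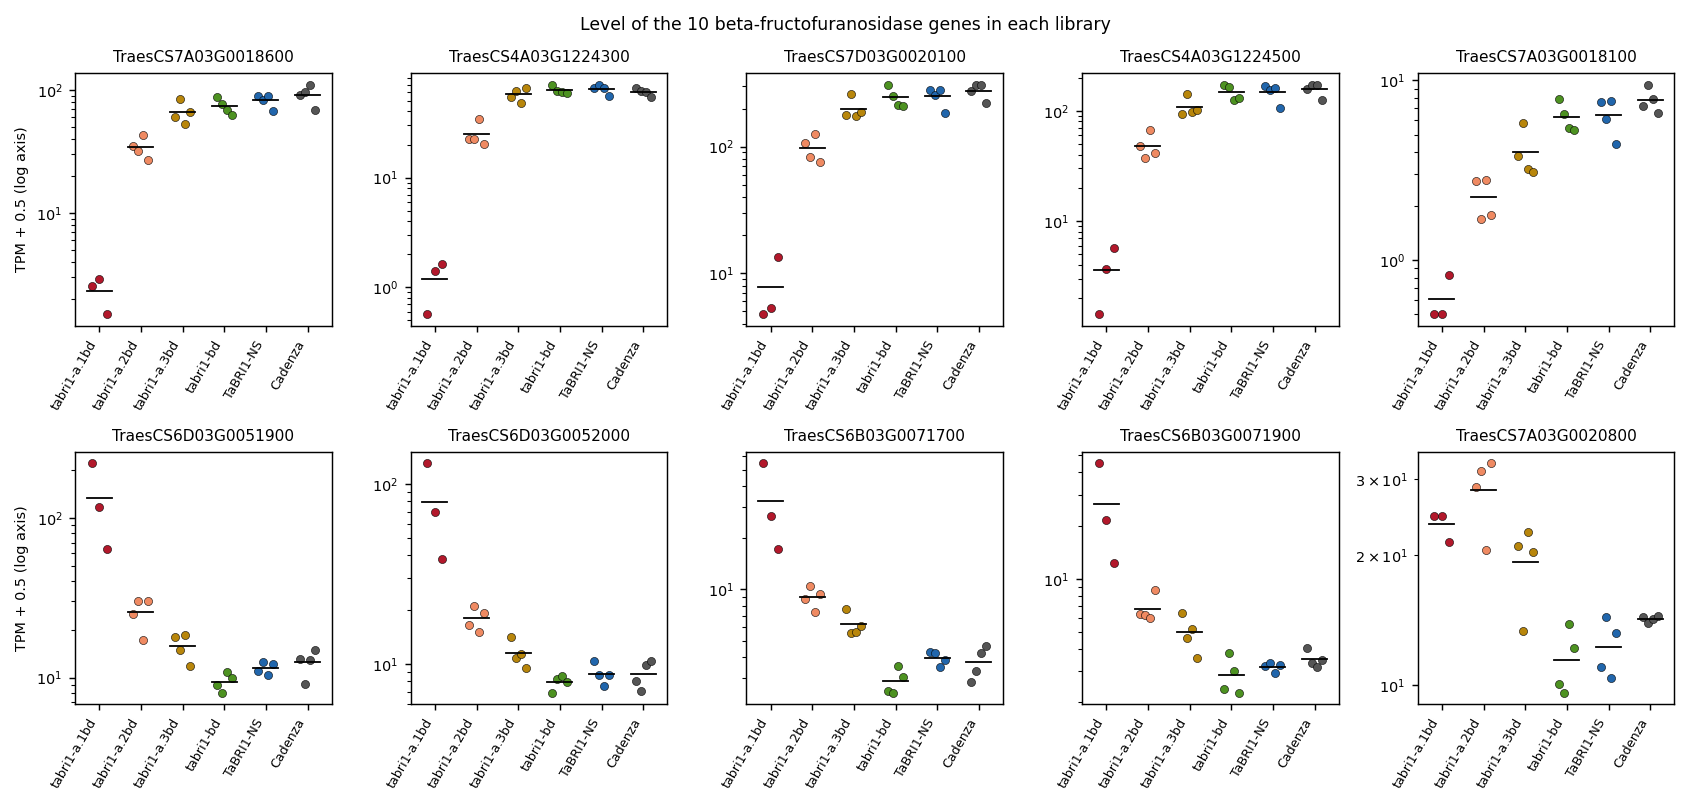
Level of each of the 10 genes (TPM + 0.5, log axis) in the 23 libraries, by genotype. Points are libraries and bars are means. In the upper row the 3 tabri1-a.1bd libraries lie far below all others, and in the first 4 panels of the lower row they lie above all others, with the tabri1-a.2bd mean between theirs and those of the remaining genotypes. Some tabri1-a.2bd libraries lie within the tabri1-a.3bd range.

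Among the genes that were lower, TraesCS7D03G0020100 had the highest level of the 10 in the wild types. It had 4.25, 4.84 and 12.9 TPM in the tabri1-a.1bd libraries and 107, 82.9, 126 and 75.4 TPM in those of tabri1-a.2bd, against 279.6, 254, 282 and 184 TPM in TaBRI1-NS. Its mean in tabri1-a.1bd was 34.1 times lower than in TaBRI1-NS, and its mean in tabri1-a.2bd was 2.55 times lower. On the log2(TPM + 0.5) scale these were differences of -5.15 (SE 0.27) and -1.36 (SE 0.25). Each SE here and below rests on 1 spread per gene shared by all genotypes of the fit. It is therefore too small for tabri1-a.1bd wherever the libraries of that genotype spread more widely than the others. All 7 dwarf libraries lay below the lowest TaBRI1-NS library.

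TraesCS4A03G1224300 had the largest negative difference of the 10 in tabri1-a.1bd. It had 0.0691, 0.923 and 1.12 TPM in the tabri1-a.1bd libraries and 22.0, 21.8, 33.7 and 19.8 TPM in those of tabri1-a.2bd, against 64.3, 68.6, 64.9 and 54.6 TPM in TaBRI1-NS. The log2 difference from TaBRI1-NS was -5.86 (SE 0.24) in tabri1-a.1bd, an 89.7 times lower mean, and -1.39 (SE 0.23) in tabri1-a.2bd. The lowest of these values, in tabri1-a.1bd replicate 1, rested on 4 recovered reads, against 2956 to 4137 reads in the TaBRI1-NS libraries.

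TraesCS4A03G1224500, the next high-confidence gene after it in identifier order on 4A, behaved like it at a higher level. It had 0.935, 3.16 and 5.20 TPM in the tabri1-a.1bd libraries and 47.0, 36.8, 65.8 and 40.6 TPM in those of tabri1-a.2bd, against 168, 155, 162 and 105 TPM in TaBRI1-NS. The log2 differences were -5.55 (SE 0.31) and -1.64 (SE 0.29). The second was the largest negative log2(TPM + 0.5) difference of any member in tabri1-a.2bd, while by the ratio of means TraesCS7A03G0018100 was 3.38 times lower there and TraesCS4A03G1224500 was 3.11 times lower.

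On 7A, TraesCS7A03G0018600 had 2.02, 2.37 and 0.995 TPM in the tabri1-a.1bd libraries and 34.7, 31.4, 42.8 and 26.5 TPM in those of tabri1-a.2bd, against 89.9, 83.2, 89.8 and 67.3 TPM in TaBRI1-NS. The differences were -5.22 (SE 0.21) and -1.29 (SE 0.20) on the log2 scale. TraesCS7A03G0018100, beside it, was the lowest in the wild types of the 5 genes that were lower. It had 0, 0 and 0.328 TPM in the tabri1-a.1bd libraries and 2.24, 1.197, 2.30 and 1.29 TPM in those of tabri1-a.2bd, against 7.09, 5.58, 7.19 and 3.93 TPM in TaBRI1-NS. Both zeros were counts of 0 reads, each of which allows up to 3 reads, or 0.0532 TPM in replicate 1 and 0.0547 TPM in replicate 2 by counting error only. Its mean was 54.4 times lower in tabri1-a.1bd than in TaBRI1-NS, while its log2 difference of -3.41 (SE 0.26) was held up by the pseudocount of 0.5.

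The 4 genes of chromosomes 6B and 6D were higher in the dwarfs. TraesCS6D03G0051900 had 220.4, 117 and 63.7 TPM in the tabri1-a.1bd libraries and 24.4, 29.9, 16.7 and 29.6 TPM in those of tabri1-a.2bd, against 10.5, 12.1, 9.81 and 11.7 TPM in TaBRI1-NS. Its mean was 12.2 times that of TaBRI1-NS in tabri1-a.1bd and 2.28 times in tabri1-a.2bd, with log2 differences of 3.37 (SE 0.29) and 1.12 (SE 0.26). TraesCS6D03G0052000, the high-confidence gene next to it, had 129.9, 69.1 and 37.5 TPM in the tabri1-a.1bd libraries and 16.0, 20.4, 14.6 and 18.8 TPM in those of tabri1-a.2bd, against 9.84, 8.21, 7.03 and 8.14 TPM in TaBRI1-NS. Its log2 differences were 3.00 (SE 0.26) and 1.02 (SE 0.24).

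The pair on 6B was lower in level than the pair on 6D but differed by a like factor. TraesCS6B03G0071700 had 54.1, 26.4 and 16.6 TPM in the tabri1-a.1bd libraries and 8.25, 9.90, 6.88 and 8.86 TPM in those of tabri1-a.2bd, against 3.80, 3.73, 2.98 and 3.37 TPM in TaBRI1-NS. TraesCS6B03G0071900 had 44.7, 21.0 and 11.8 TPM in the tabri1-a.1bd libraries and 5.78, 5.70, 5.47 and 8.11 TPM in those of tabri1-a.2bd, against 2.72, 2.84, 2.41 and 2.74 TPM in TaBRI1-NS. Their means in tabri1-a.1bd were 9.33 and 9.65 times those in TaBRI1-NS. The ratios for tabri1-a.2bd were 2.44 and 2.34.

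In all 4 of these genes replicate 1 of tabri1-a.1bd was the highest and replicate 3 the lowest, and their summed level was 449, 234 and 129.6 TPM in the 3 libraries. This spread among libraries of a single genotype was wider than in any other genotype, where the sum ran from 43.6 to 65.9 TPM in tabri1-a.2bd and from 22.2 to 26.9 TPM in TaBRI1-NS. The lowest tabri1-a.1bd library still had more than any library of the other 5 genotypes. In that genotype the 2 genes on 6D kept a fixed ratio, TraesCS6D03G0051900 being 1.70 times TraesCS6D03G0052000 in each of the 3 libraries, against 1.14 to 1.58 times in tabri1-a.2bd and 1.07 to 1.47 times in TaBRI1-NS.

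TraesCS7A03G0020800 stood apart from the other genes that were higher. It had 24.2, 24.1 and 20.9 TPM in the tabri1-a.1bd libraries and 28.3, 30.8, 20.01 and 32.2 TPM in those of tabri1-a.2bd, against 10.5, 13.9, 9.89 and 12.7 TPM in TaBRI1-NS. Its log2 difference was 0.95 (SE 0.18) in tabri1-a.1bd and 1.198 (SE 0.17) in tabri1-a.2bd, and it was the one member whose mean was highest in tabri1-a.2bd. The libraries of the dwarf mutants overlapped each other for this gene, with a log2 difference between tabri1-a.1bd and tabri1-a.2bd of -0.25 (SE 0.18). Its ratio of 1.96 in tabri1-a.1bd was the smallest of any member in a dwarf mutant. This ratio of mean TPM lies below the minimum fold change of the study's calls. That minimum was set on another measure, fold changes estimated from read counts. Genes of the same term that the study did not list were not analysed here.

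**Figure D2:**
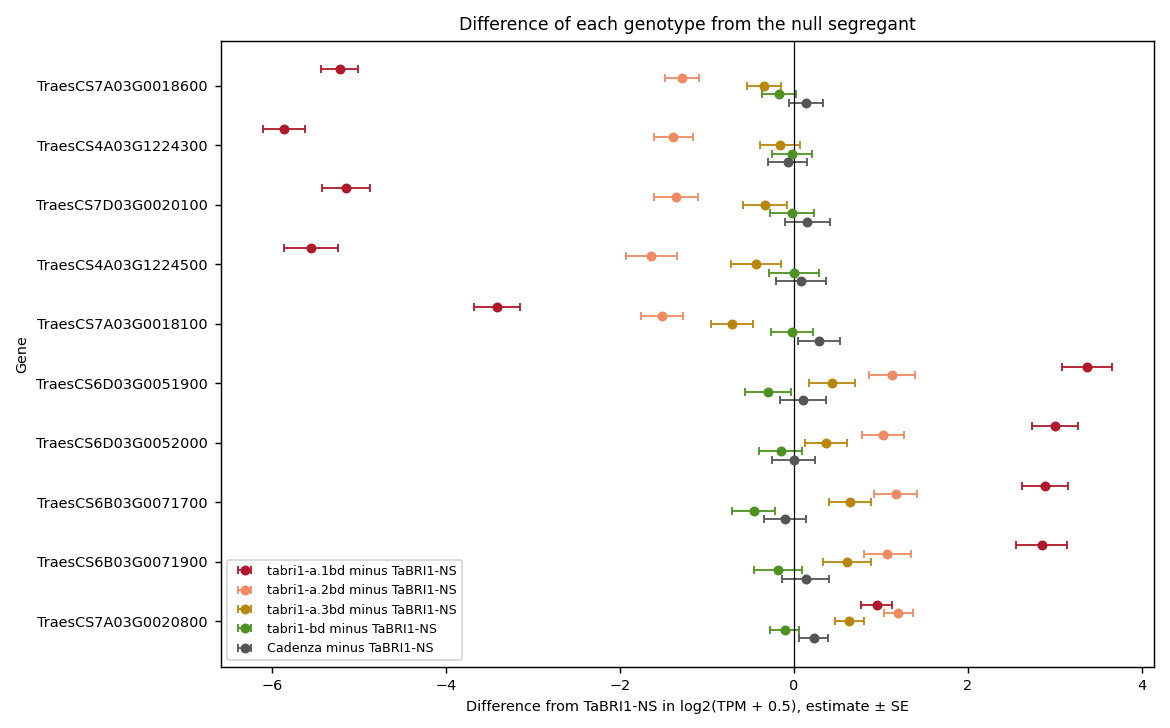
Difference of each genotype from TaBRI1-NS in log2(TPM + 0.5), estimate ± SE from limma, for each of the 10 genes. tabri1-a.1bd lies at -5.86 to -3.41 for 5 genes and at 2.85 to 3.37 for the 4 genes on 6B and 6D, tabri1-a.2bd is nearer to 0 on the same side, and tabri1-bd and Cadenza lie within 0.46 of 0.

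Cadenza, whose libraries the choice of genes did not use, gave the same picture as a second wild type. All 10 genes were again free of overlap with it in tabri1-a.1bd, where 37.7% of all genes tested were (19.8% lower and 18% higher), and in tabri1-a.2bd, where 16% were (9.49% lower and 6.49% higher), with 5 members lower and 5 higher in each. In tabri1-a.1bd the log2 differences from Cadenza were -5.79 to -3.70 for the genes that were lower and 2.71 to 3.27 for those on 6B and 6D. In tabri1-a.2bd they were -1.81 to -1.31 and 0.94 to 1.27. The dwarf libraries are the same in both sets of differences, so the second is no separate measurement of the dwarfs. Between Cadenza and TaBRI1-NS themselves, every one of the 10 genes overlapped, with log2 differences of -0.10 to 0.29, where 12.5% of all genes did not overlap. The same held between tabri1-bd and TaBRI1-NS, with log2 differences of -0.46 to 0.00, where 4.99% of all genes did not overlap. limma called 0 of the 10 there, and 0.126% of all genes.

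The dwarf mutants also differed from each other in 9 of the 10 genes. The 5 lower genes were 13.4 to 34.5 times lower in tabri1-a.1bd than in tabri1-a.2bd, and the 4 genes on 6B and 6D were 3.82 to 5.32 times higher, with no overlap of libraries in any of the 9. Such absence of overlap between these genotypes was seen for 36.1% of all genes tested, 17.3% lower and 18.8% higher in tabri1-a.1bd. In all 5 lower genes the group means were ordered with tabri1-a.1bd below tabri1-a.2bd, tabri1-a.2bd below tabri1-a.3bd, and tabri1-a.3bd below the other 3 genotypes, an order found in 3.1% of all genes tested. The reverse order was found in the 4 genes on 6B and 6D, and in 4.06% of all genes. Libraries of tabri1-a.3bd overlapped those of TaBRI1-NS in 8 of the 10 genes (11.3% of all genes did not overlap), so that step of the order was mostly within the spread of replicates. The members were chosen as called in both dwarf mutants and not in tabri1-a.3bd, which favours dwarf means lying beyond that of tabri1-a.3bd. The 3.1% and 4.06% are over genes without that choice, so they do not test the order.

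**Figure D3:**
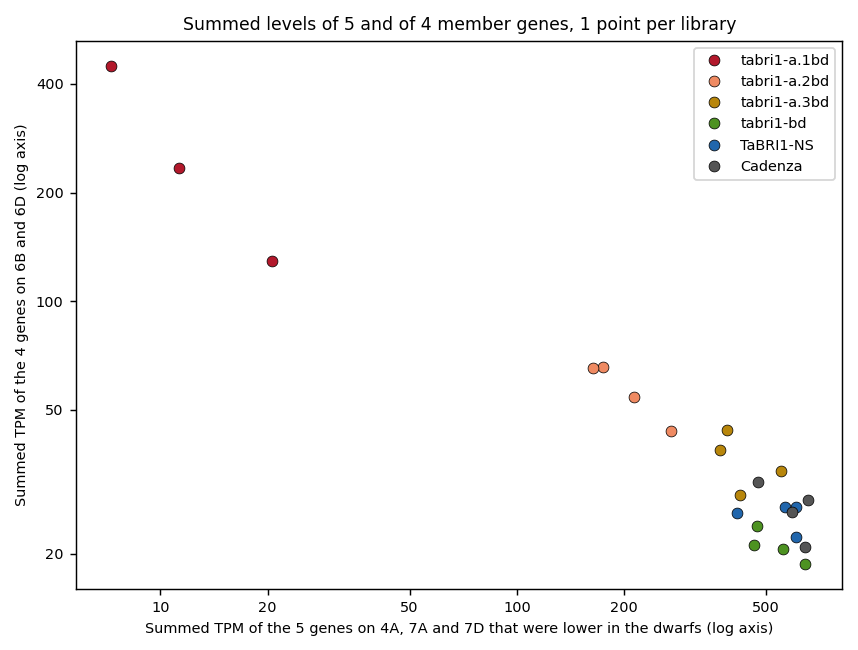
Summed TPM of the 4 genes on 6B and 6D against the summed TPM of the 5 genes on 4A, 7A and 7D that were lower in the dwarfs, both on log axes, 1 point per library. The tabri1-a.1bd libraries lie at 7.27 to 20.5 TPM across and 129.6 to 449 TPM up, and the TaBRI1-NS libraries at 415 to 609 TPM across and 22.2 to 26.9 TPM up.

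Summed over members, TPM of the 5 lower genes came to 13.04 ± 6.81 in tabri1-a.1bd (SD, n = 3), 205 ± 48.5 for tabri1-a.2bd, 433 ± 80.5 for tabri1-a.3bd, 533 ± 85.0 in tabri1-bd, 549 ± 91.3 in TaBRI1-NS and 591 ± 82.5 in Cadenza (SD, n = 4 each). The genes on 6B and 6D summed to 271 ± 163 TPM in tabri1-a.1bd, 57.3 ± 10.5 TPM in tabri1-a.2bd, 36.4 ± 6.40 TPM in tabri1-a.3bd, 21.1 ± 2.12 TPM in tabri1-bd, 25.5 ± 2.21 TPM in TaBRI1-NS and 26.6 ± 4.44 TPM in Cadenza. The genes on 6B and 6D together had 6.31 to 61.8 times the summed level of the 5 others in the tabri1-a.1bd libraries, against 0.0367 to 0.0624 times in the TaBRI1-NS libraries. In tabri1-a.2bd this ratio was 0.161 to 0.399.

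The comparisons among tabri1-a.3bd, tabri1-bd and Cadenza were tested, since they hold none of the libraries in which the members had to be called. tabri1-a.3bd entered the choice only as the line in which the genes were not called against TaBRI1-NS. The comparison with tabri1-bd asked whether the same genes differed between tabri1-a.3bd and the double mutant it was made from. Effects of its substitution allele and of other induced mutations in that line cannot be told apart. limma was fitted to log2(TPM + 0.5) of the 12 libraries, with p-values adjusted by the Benjamini-Hochberg method over all 83495 genes and a threshold of 0.05. It called 4 of the 10 genes higher in tabri1-a.3bd than in tabri1-bd and none lower, where 5.45% of all genes were called, 3.97% higher and 1.47% lower. At an unadjusted p under 0.05 there were 7 of the 10, where 21.4% of all genes were, and the median log2 difference was 0.19 over the 10 genes and 0.07 over all genes. These shares are over genes without the choice of members, and the members varied together between libraries. The counts therefore do not test the members as a set.

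TraesCS6B03G0071700 rose most, with 7.15, 5.03, 5.14 and 5.61 TPM in tabri1-a.3bd, against 2.03, 1.98, 3.05 and 2.56 TPM in tabri1-bd. The log2 difference was 1.10 (SE 0.18, limma adjusted p = 0.0067), and the libraries did not overlap. It was the one member that was called without each of the 8 libraries in turn. TraesCS6B03G0071900 had 5.92, 4.14, 4.73 and 3.07 TPM in tabri1-a.3bd, against 1.87, 3.30, 2.50 and 1.77 TPM in tabri1-bd, a log2 difference of 0.80 (SE 0.20, limma adjusted p = 0.041). Here the lowest tabri1-a.3bd library lay below the highest tabri1-bd library.

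On 6D, TraesCS6D03G0051900 had 17.3, 14.5, 17.9 and 11.4 TPM in tabri1-a.3bd, against 8.43, 7.56, 10.3 and 9.37 TPM in tabri1-bd. The log2 difference was 0.73 (SE 0.17, limma adjusted p = 0.029), again with no overlap. TraesCS6D03G0052000 had 13.6, 10.3, 10.9 and 8.95 TPM in tabri1-a.3bd, against 6.43, 7.71, 8.02 and 7.41 TPM in tabri1-bd. Its libraries did not overlap either, and its log2 difference of 0.52 (SE 0.15, limma adjusted p = 0.059) missed the threshold. In all, 3 members were higher in every tabri1-a.3bd library than in any tabri1-bd library, which held for 9.57% of all genes tested.

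TraesCS7A03G0020800, the 7A gene that was higher, had 20.5, 12.8, 22.1 and 19.8 TPM in tabri1-a.3bd, against 9.56, 9.10, 13.3 and 11.7 TPM in tabri1-bd. The log2 difference was 0.74 (SE 0.16, limma adjusted p = 0.021), and replicate 2 of tabri1-a.3bd lay inside the range of tabri1-bd. The comparison of tabri1-a.3bd with TaBRI1-NS entered the choice of members, so its values are a description. limma called only this member there, higher at a log2 difference of 0.64 (SE 0.17). Of all genes 2.3% were called there and 1.65% were called higher. The study's calls also needed a minimum fold change, which the limma calls here did not.

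The 5 genes that were lower in the dwarfs were not called between tabri1-a.3bd and tabri1-bd. TraesCS7A03G0018100 had 3.28, 5.33, 2.71 and 2.60 TPM in tabri1-a.3bd, against 7.41, 6.04, 4.91 and 4.77 TPM in tabri1-bd, a log2 difference of -0.69 (SE 0.21, limma adjusted p = 0.074). Replicate 2 of tabri1-a.3bd was the one that overlapped, and without it the gene was called, at -0.89 (limma adjusted p = 0.016). TraesCS4A03G1224500 had 93.9, 142, 96.4 and 102 TPM in tabri1-a.3bd, against 172, 163, 125 and 129 TPM in tabri1-bd, a log2 difference of -0.44 (SE 0.15, limma adjusted p = 0.11), and it too was called without that replicate (-0.58, limma adjusted p = 0.033). TraesCS7D03G0020100, TraesCS7A03G0018600 and TraesCS4A03G1224300 had log2 differences of -0.30, -0.17 and -0.14, with SEs of 0.10 to 0.16.

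**Figure D4:**
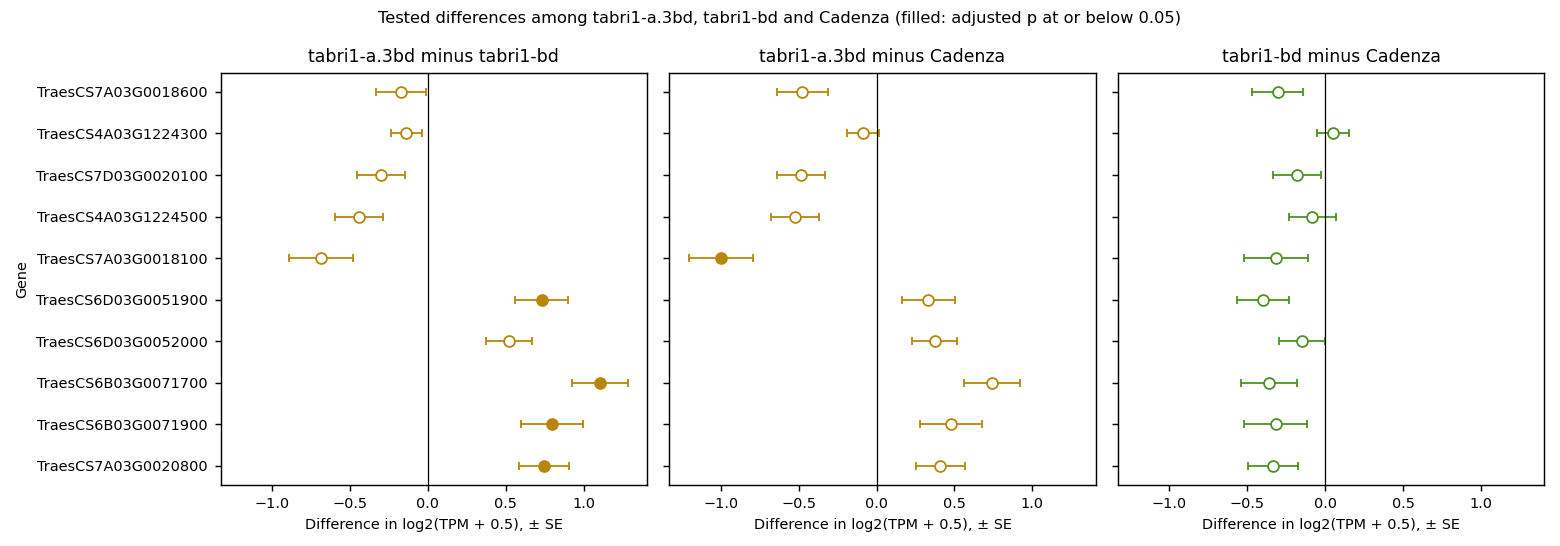
Tested differences in log2(TPM + 0.5), estimate ± SE from limma, of the 10 genes in tabri1-a.3bd minus tabri1-bd, tabri1-a.3bd minus Cadenza and tabri1-bd minus Cadenza. Filled points had an adjusted p at or below 0.05. There are 4 filled points in the first panel, all above 0, 1 in the second at -1.002, and none in the third.

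The calls between tabri1-a.3bd and tabri1-bd depended on single libraries. Only 1 member was called without replicate 1 or without replicate 3 of tabri1-a.3bd, or without replicate 1 of tabri1-bd, and 2 were called without replicate 2 or replicate 4 of tabri1-bd. Without replicate 2 of tabri1-a.3bd there were 5 calls, 3 higher and 2 lower. With no filter on low values, or with all 23 libraries in the fit, 2 were called. With libraries scaled by median-of-ratios size factors, 3 members were called, 2 higher and 1 lower, while over all genes the calls changed to 1727 higher and 2389 lower, against 3317 higher and 1231 lower without that scaling.

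Against Cadenza the same mutant gave 1 call. TraesCS7A03G0018100 fell to 3.28, 5.33, 2.71 and 2.60 TPM in tabri1-a.3bd, against 6.67, 8.97, 7.37 and 6.11 TPM in Cadenza, with no overlap. The log2 difference was -1.002 (SE 0.21, limma adjusted p = 0.026), where 2.44% of all genes were called and 1.37% called lower, while 5.14% were lower with no overlap. The call was lost with no filter on low values, and without any one of replicates 1, 3 and 4 of tabri1-a.3bd or replicates 1, 2 and 3 of Cadenza, the left-out libraries giving limma adjusted p of up to 0.079. Without replicate 2 of tabri1-a.3bd there were 4 calls, with TraesCS4A03G1224500 (-0.66), TraesCS7D03G0020100 (-0.62) and TraesCS7A03G0020800 (0.58) added. TraesCS6B03G0071700 had 7.15, 5.03, 5.14 and 5.61 TPM in tabri1-a.3bd, against 2.38, 2.80, 3.73 and 4.13 TPM in Cadenza. That difference of 0.74 (SE 0.18, limma adjusted p = 0.052) lay just outside the threshold.

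At an unadjusted p under 0.05 there were 8 of the 10 genes between tabri1-a.3bd and Cadenza, where 16.1% of all genes were. The 5 genes that were lower in the dwarfs had negative differences and the other 5 had positive differences, as they did against tabri1-bd. The same tabri1-a.3bd libraries stand in both comparisons, and the members varied together between libraries. Neither count therefore tests the members as a set. For TraesCS4A03G1224300 the difference from Cadenza was -0.09 (SE 0.10), although this gene had the largest difference of all members in tabri1-a.1bd.

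Between tabri1-bd and Cadenza limma called 0 of the 10 genes, where 7.61% of all genes were called. At an unadjusted p under 0.05 there was 1 of the 10, and 22.6% of all genes. Under every alternative tried, voom on recovered reads included, the number called also was 0. The log2 differences were -0.40 to 0.05, with SEs of 0.10 to 0.21. TraesCS7A03G0020800 was the only member whose libraries did not overlap, with 9.56, 9.10, 13.3 and 11.7 TPM in tabri1-bd, against 13.9, 13.4, 13.7 and 13.98 TPM in Cadenza. Its difference was -0.34 (SE 0.16, limma adjusted p = 0.23), and 17.8% of all genes tested had no overlap here.

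Members with the same direction also varied together from library to library. Over the 23 libraries, Pearson's r of log2(TPM + 0.5) was 0.93 to 0.99 among the 5 lower genes and 0.96 to 0.99 among the 4 genes on 6B and 6D, and -0.98 to -0.89 between these groups. TraesCS7A03G0020800 was less tightly tied, at 0.66 to 0.75 with the genes on 6B and 6D and -0.76 to -0.56 with the others. These values share the genotypes, chiefly the 3 tabri1-a.1bd libraries, and are a description.

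After each genotype's mean was taken away, and with tabri1-a.1bd left out, the deviations in the other 20 libraries still had r of 0.54 to 0.95 among the 5 lower genes and 0.08 to 0.78 among the genes on 6B and 6D. All 20 correlations between a gene of the first kind and a gene of the second were negative, at -0.73 to -0.14. With tabri1-a.1bd kept in, r was 0.11 to 0.90 among the 5 lower genes and 0.67 to 0.92 among those on 6B and 6D, and 17 of the 20 between them were negative, at -0.86 to 0.17. TraesCS7A03G0020800 had -0.81 to -0.62 with the lower genes when tabri1-a.1bd was left out, and -0.78 to -0.43 when it was kept in. Replicate 3 of tabri1-a.2bd showed this in the values above, since it had the highest level of that genotype in all 5 lower genes and the lowest in all 5 others. The genes of a library share its depth, harvest and processing, so no test was made.

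The most similar genes were looked for over the same 23 libraries, as the 2 tested genes, other members included, with the highest r for each member. TraesCS7D03G0021600, on the same chromosome as TraesCS7D03G0020100, was among the 2 for 3 of the lower genes, at r of 0.993 to 0.996. It averaged 5.98 ± 3.39 TPM in the tabri1-a.1bd libraries (SD, n = 3) and 190.3 ± 52.8 TPM in those of tabri1-a.2bd, against 469.9 ± 81.3 TPM in TaBRI1-NS (SD, n = 4 each). TraesCS7D03G0020100 and TraesCS4A03G1224500 were each other's most similar gene, at r of 0.994, and so were the 2 members on 6D, at 0.990. Both members on 6B had the 2 members on 6D as their most similar genes, at 0.972 to 0.978. TraesCS7A03G0018600 was most like TraesCS1A03G0925600, at 0.991, and TraesCS7A03G0018100 most like TraesCS2A03G0068700, at 0.979. For TraesCS7A03G0020800 no gene came closer than TraesCS6A03G0600000, at 0.915. The sources used here gave no function for the named genes that are not members. Whether any of them belongs to the same enzyme family was not determined.

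Members lay close together in identifier order, in pairs on 4A, 6B and 6D and on 7A. The distal end of chromosome arm 4AL comes from an old translocation of 7BS, so that genes there have their relatives on 7A and 7D. Reads shared between such relatives, or between neighbouring copies, could have been divided or dropped in the authors' counting, and the levels of near-identical members are uncertain to that extent. Of the 59 high-confidence genes within 5 places of a member and not themselves members, 28 passed the filter on low values. limma called 9 of these higher and 8 lower in tabri1-a.1bd than in TaBRI1-NS, where 43.8% of all genes were called (24.5% higher and 19.3% lower), and 3 higher and 2 lower in tabri1-a.2bd, where 7.46% were (3.99% higher and 3.47% lower).

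**Figure D5:**
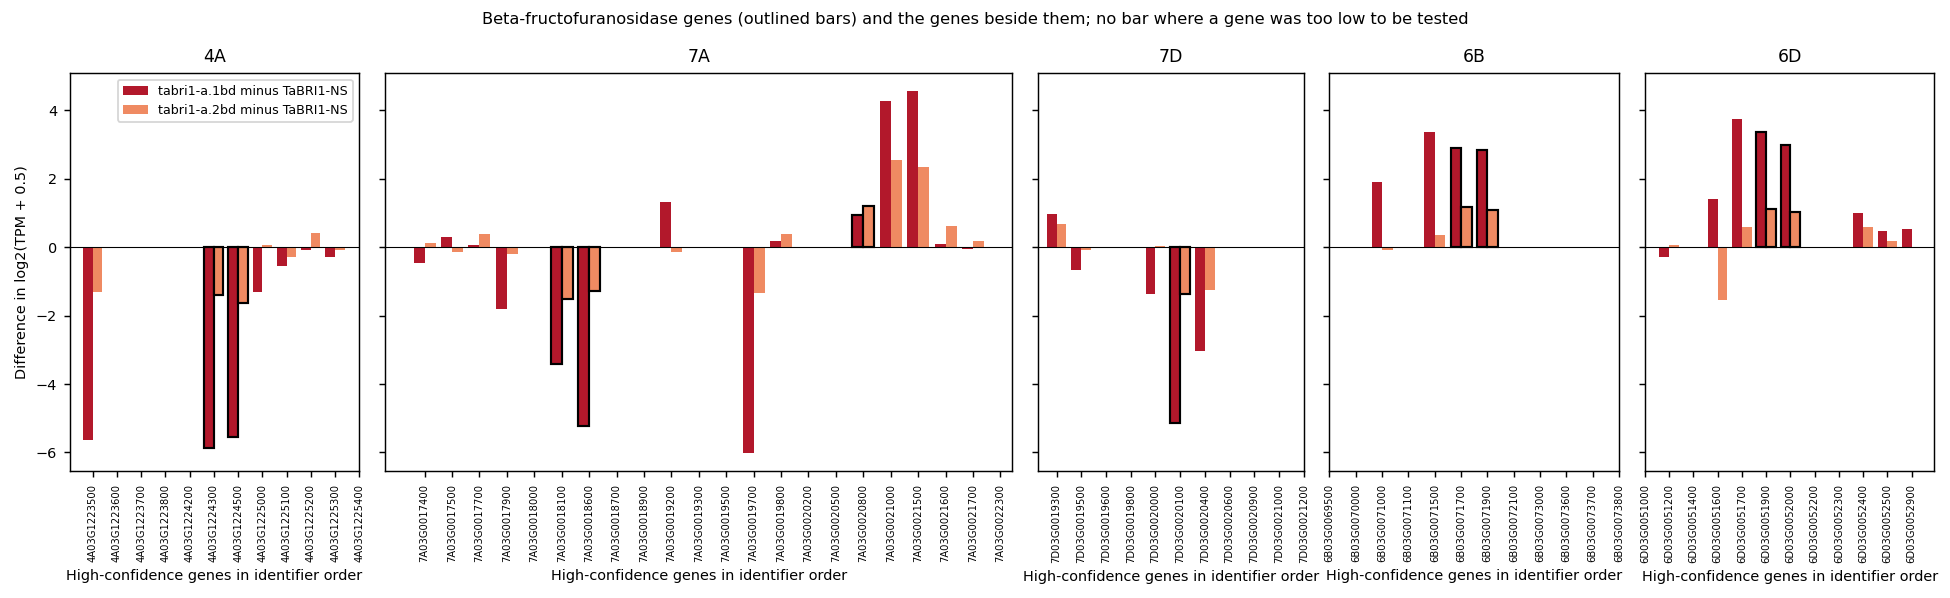
Difference from TaBRI1-NS in log2(TPM + 0.5) of tabri1-a.1bd and tabri1-a.2bd for the members (outlined bars) and the high-confidence genes beside them, by chromosome in identifier order. Genes without bars were too low to be tested. In tabri1-a.1bd, TraesCS4A03G1223500 lies at -5.64, TraesCS7A03G0019700 at -6.01, TraesCS7A03G0021000 at 4.26 and TraesCS7A03G0021500 at 4.56.

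A few of these neighbours had large differences, and they are named here after their values were seen. TraesCS7A03G0019700 averaged 7.15 ± 6.80 TPM in the tabri1-a.1bd libraries (SD, n = 3) and 120.2 ± 27.6 TPM in those of tabri1-a.2bd, against 303 ± 47.1 TPM in TaBRI1-NS (SD, n = 4 each). TraesCS4A03G1223500 averaged 10.9 ± 9.01 TPM in the tabri1-a.1bd libraries and 148 ± 32.9 TPM in those of tabri1-a.2bd, against 367 ± 68.6 TPM in TaBRI1-NS. TraesCS7A03G0019700 lay within 5 places of TraesCS7A03G0020800, which was higher in the dwarfs.

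Next to TraesCS7A03G0020800 the neighbours differed more than the member did. TraesCS7A03G0021000 averaged 166 ± 121 TPM in the tabri1-a.1bd libraries and 35.2 ± 7.88 TPM in those of tabri1-a.2bd, against 5.79 ± 2.30 TPM in TaBRI1-NS. TraesCS7A03G0021500 averaged 70.5 ± 43.7 TPM in the tabri1-a.1bd libraries and 12.2 ± 3.49 TPM in those of tabri1-a.2bd, against 1.96 ± 0.371 TPM in TaBRI1-NS. Of the 3 members on 7A, 2 were lower and 1 was higher, so that genes with opposite differences lay within a short run of identifiers.

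In the tested comparisons, limma called 3 of the 28 neighbours higher in tabri1-a.3bd than in tabri1-bd and 0 lower. The share called over all genes was 5.45% (3.97% higher and 1.47% lower). All 3 neighbours were on 7A. They were TraesCS7A03G0019200 (0.88, SE 0.19), TraesCS7A03G0019800 (0.49, SE 0.12) and TraesCS7A03G0021500 (0.70, SE 0.18), at adjusted p of 0.023, 0.038 and 0.049 from limma. Against Cadenza, 1 of the 28 was called in tabri1-a.3bd. This was TraesCS7A03G0019700, lower at -0.51 (SE 0.12, limma adjusted p = 0.042). Of all genes 2.44% were called there, with 1.37% called lower.

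The study listed 13 beta-glucosidase genes, enzymes that split sugars from glucosides, by the same choice, and all 13 were high enough to be tested. That choice fixed their calls in the dwarf mutants against TaBRI1-NS, so the counts are a description. In tabri1-a.1bd limma called 11 higher and 1 lower, where 43.8% of all genes were called, with a median log2 difference of 1.92, against 0.10 over all genes. In tabri1-a.2bd it called 7 higher and 5 lower, where 7.46% of all genes were called, with a median of 0.69, against 0.08 over all genes. The medians over the 10 members, of which 5 were lower and 5 higher, were -1.23 and -0.13.

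Of the beta-glucosidase genes, 4 were called higher in tabri1-a.1bd and lower in tabri1-a.2bd, all on chromosome group 3. The 13 were chosen as called in both dwarf mutants, and the share of all genes with such opposite calls was not computed. The largest positive log2 differences from TaBRI1-NS in tabri1-a.2bd were those of TraesCS2B03G1500200 (3.38, SE 0.53) and TraesCS2D03G1268900 (2.56, SE 0.85, not called), and the largest negative ones those of TraesCS3A03G1131900 (-2.09, SE 0.54) and TraesCS3D03G1053700 (-1.93, SE 0.49). In tabri1-a.3bd against tabri1-bd limma called 0 of the 13, where 5.45% of all genes were called, with 0 at an unadjusted p under 0.05, where 21.4% of all genes were. In tabri1-a.3bd against Cadenza it called 2 higher, where 2.44% of all genes were called. In tabri1-bd against Cadenza it called 0, where 7.61% were, with 3 at an unadjusted p under 0.05, where 22.6% were.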

How the data were processed

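Trimmomatic 0.39 was used by the authors to trim the paired-end reads, STAR 2.7.8a to map them on wheat assembly IWGSC RefSeq v2.1, and HTSeq 0.11.3 to count them per gene. The counting options for strand and for reads with several matches were not given in the sources used here. The values that the authors deposited were TPM, which scale each count for gene length and library size, in 1 column per library. Libraries were grouped by the genotype in the labels. Each came from several pooled seedlings. The p-values measure the spread between these libraries.

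Genes with at least 0.5 TPM in at least 3 of the 23 libraries were kept. limma 3.58.1 (R 4.3.3) was fitted to log2(TPM + 0.5), with a trended and robust prior and Benjamini-Hochberg adjustment over all genes kept. A fit of all 23 libraries gave the differences from TaBRI1-NS and those of the dwarf mutants from Cadenza and from each other, and a fit of 12 libraries gave the tested ones. In each fit the SEs rest on 1 spread per gene shared by its genotypes. The array weights that limma estimated were 0.0631 to 0.438 for the tabri1-a.1bd libraries and 0.849 to 2.59 for the others. A low weight marks a library that varies more, so the SEs for tabri1-a.1bd are mostly too small. A fold change on the log2(TPM + 0.5) scale understates the change of low genes. The ratios of means are of plain TPM.

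Whole reads were recovered from the TPM steps for 94741 of 94749 genes above 0 in at least 8 libraries, within a tolerance of 0.05 of a whole number. They served for the depth, the limits that 0 reads allow, and voom as an alternative test. Intervals and limits cover counting error only. The alternatives were the pseudocount, the filter, size factors, array weights, a replicate block, the libraries fitted together, voom and leaving out each library. The tests were tried on simulated data first. Same-numbered libraries were not paired.

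The members and lists were chosen with earlier results of these data known. All members are named. The 2 genes most like each member could be named, and some of them are. Also named are the 2 beta-glucosidase genes with the largest differences each way in tabri1-a.2bd. Neighbours were to be named where a member beside them was called in a test. Those named for their size of difference were chosen after their values were seen. The identifiers were matched to 0 entries of the gene table at hand, so neither positions nor sequences are given.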

Additional observations from a re-analysis of the deposited data

Results flagged for a closer look

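Single libraries stood far from the other 3 of their genotype in 4 of the 50 combinations of member and genotype with 4 libraries, where chance alone gives about 1 in 20. A library was picked out when its gap to the nearest other library exceeded 0.829 of the whole range. Replicate 2 of tabri1-a.3bd was high for 2 of the genes that were lower in the dwarfs. It had 258 TPM of TraesCS7D03G0020100, against 174 to 187 TPM in the other libraries, and 142 TPM of TraesCS4A03G1224500, against 93.9 to 102 TPM. Without that library, 5 members instead of 4 were called against tabri1-bd, and 4 instead of 1 against Cadenza. Replicate 3 of tabri1-a.2bd had 33.7 TPM of TraesCS4A03G1224300, against 19.8 to 22.0 TPM in its other libraries. Replicate 4 of tabri1-a.2bd had 8.11 TPM of TraesCS6B03G0071900, against 5.47 to 5.78 TPM. The tabri1-a.1bd group, with 3 libraries, was too small for this comparison.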

How the results depend on the processing

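The number of members called between tabri1-a.3bd and tabri1-bd, 4 as reported, was 2 with no filter on low values and 2 in the fit of all 23 libraries, and 1 to 5 when single libraries were left out. In the other 8 alternatives it was 3 to 6, with 4 under the replicate block (3 higher and 1 lower) and 6 under voom on recovered reads. Between tabri1-a.3bd and Cadenza, 1 as reported, it was 0 with no filter, 2 with a pseudocount of 1, a filter of 2 TPM, high-confidence genes only or voom, 1 under the replicate block, and 0 to 4 when single libraries were left out. Between tabri1-bd and Cadenza it was 0 throughout, with the block too. The cause of these shifts was not tested.

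Same-numbered libraries did not deviate together in the tested comparisons, at r of -0.01 to 0.08 over genes, so the numbers were not taken as pairs. TraesCS4A03G1224300 was at 0.05 in tabri1-bd against Cadenza and at -0.0046 to 0.0939 when single libraries were left out. TraesCS4A03G1224500 there was at -0.08, with the sign turned at 0.0386 with size factors and 1.68e-05 with voom. Every member kept its direction from TaBRI1-NS in both dwarf mutants under all alternatives tried there, with 5 positive in each. Those were the pseudocounts, size factors, replicate block, voom and left-out libraries. The other filters, high-confidence genes only and array weights were not tried for these differences.

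Over all genes, the 4548 calls between tabri1-a.3bd and tabri1-bd became 1902 in the fit of all 23 libraries, the 2037 against Cadenza became 952 there and 3134 with voom, and the 6358 between tabri1-bd and Cadenza became 3052 there and 12044 with array weights. Left-out libraries gave 1783 to 4539, 1041 to 2000 and 2939 to 5660. With size factors the 1510 higher and 4848 lower calls between tabri1-bd and Cadenza became 3027 and 2455. That scaling also lowered the share of calls against TaBRI1-NS that were higher, to 47.0% instead of 56.0% for tabri1-a.1bd, 37.3% instead of 53.5% for tabri1-a.2bd, 43.4% instead of 71.7% for tabri1-a.3bd and 61.8% instead of 87.4% for Cadenza.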
